A study of Mus musculus with 12 samples.

Results

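Fatty acid binding proteins (FABPs) are small cytosolic proteins that hold a long-chain fatty acid inside a barrel of beta strands and carry it through the water of the cell. FABP3 is the form of heart and skeletal muscle, where it brings fatty acids that enter the myocyte towards mitochondria and the nucleus. FABP4 is the form of adipocytes and macrophages and is also made by the endothelium of heart capillaries, and FABP5, first known from epidermis, shares the endothelium and macrophages with it. The 3 genes *Fabp3*, *Fabp4* and *Fabp5* were taken by symbol from a table of 19308 genes, which holds 6 other rows of the family (*Fabp1*, *Fabp2*, *Fabp7*, *Fabp9*, *Fabp12* and *Pmp2*). The question was whether *Fabp4* or *Fabp5* RNA is higher in hearts that carry only the remaining *Fabp3* transcript.

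RNA was sequenced from whole hearts of C57BL/6 mice in 4 groups of 3 independent biological replicates, namely WT sham, F3-KO sham, WT TAC and F3-KO TAC. F3-KO mice are a global CRISPR-Cas9 knockout of *Fabp3*, so every cell type of the heart carries the deletion. Surgery was done at 8 weeks of age and hearts were taken 1 week later. In transverse aortic constriction (TAC) the aortic arch is narrowed so that the left ventricle works against a raised pressure, and sham mice had no constriction.

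Libraries held 10424334 to 14372011 estimated counts, so that 3 counts correspond to 0.209 to 0.288 CPM (counts scaled to a common library total). Cardiomyocyte markers summed to 83393 to 135101 CPM by library total, as the label heart implies. The libraries F3-KO TAC replicates 2 and 3 stood apart in holding liver transcripts, since 8 hepatocyte markers, a list added after the data were seen, summed to 85.0 and 132 CPM there against 0.858 to 1.85 CPM in the other 10 hearts. The main values for TAC-operated F3-KO hearts are therefore also given without both. Of the 5 genes of the pressure overload list, *Nppb* and *Acta1* rose with TAC over both genotypes (log2 fold changes 1.86 and 3.36, edgeR adjusted p = 0.0105 and 0.0248). edgeR called 0.078% of genes in that comparison. F3-KO TAC replicate 1, the only heart of its group without liver transcripts, stood over every sham heart in *Nppb*, *Acta1* and *Ankrd1*. Its *Nppa* (153 CPM, TMM-normalised) lay within the sham range of 37.1 to 339 CPM, as did that of WT TAC replicate 2 (143 CPM). *Myh7* was lowest of all hearts in F3-KO TAC replicate 1 (174 CPM). WT sham replicates 2 and 3 held 9172 and 4017 CPM of it.

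The 3 genes share 1 plan of 4 exons, and in all of them exon 2 is 173 bases long and entirely coding. That exon is the one left out of the knockout allele in the construct scheme of the study. In GENCODE's GRCm38 annotation *Fabp3* lies on the plus strand of chromosome 4, with exon 2 at chr4:130312291-130312463. *Fabp4* (minus strand, exon 2 at chr3:10205950-10206122) and *Fabp5* (plus strand, exon 2 at chr3:10014971-10015143) are near each other on chromosome 3. The 3 copies of exon 2, read from the GENCODE transcripts, are shown 5′ to 3′ because they give both the piece drawn as deleted and how far the paralogs can be told apart by reads, with capitals at the 83 bases (48.0%) that are identical in all 3 genes.
Fabp3: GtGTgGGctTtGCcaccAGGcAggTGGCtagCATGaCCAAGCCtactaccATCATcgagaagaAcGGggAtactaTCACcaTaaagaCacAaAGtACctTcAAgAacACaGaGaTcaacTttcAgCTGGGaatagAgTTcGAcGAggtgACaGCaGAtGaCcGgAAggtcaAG
Fabp4: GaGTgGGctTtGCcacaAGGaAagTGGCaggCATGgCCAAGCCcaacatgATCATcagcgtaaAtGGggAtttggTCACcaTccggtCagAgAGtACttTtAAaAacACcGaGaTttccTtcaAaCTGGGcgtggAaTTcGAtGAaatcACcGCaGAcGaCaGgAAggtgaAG
Fabp5: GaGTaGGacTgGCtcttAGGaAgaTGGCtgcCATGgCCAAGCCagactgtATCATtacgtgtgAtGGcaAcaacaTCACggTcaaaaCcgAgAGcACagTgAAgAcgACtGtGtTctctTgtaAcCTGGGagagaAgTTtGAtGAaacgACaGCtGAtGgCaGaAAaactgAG

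*Fabp3* and *Fabp4* matched at 122 of the 173 bases (70.5%), *Fabp4* and *Fabp5* at 103 (59.5%), and *Fabp3* and *Fabp5* at 99 (57.2%). The longest identical stretch in this exon was 14 bases, and over the whole transcripts no run of 50 bases was shared between any pair of the 3 genes. Reads of that length or more can be told apart between the paralogs. *Fabp3* shared 29.2% of its 50-base words with the pseudogene *Fabp3-ps1* and 4.13% and 4.01% with the opposite strand of *Zcchc17* and *Gm10570*, *Fabp5* shared words with 5 annotated loci, most with *Gm6166* (19.6%), and *Fabp4* shared none. In the deposited table *Fabp3* was not a whole number in 12 of 12 libraries, *Fabp5* in 2 and *Fabp4* in 0, so *Fabp3* is uncertain by what a pseudogene or an overlapping gene could add or take, which was not tested. Exon 2 makes up 43.4% of the *Fabp3* coding sequence, and its removal shortens the transcript from 823 to 650 bases, or 79.0%. The counts are per gene and do not show which exons the reads came from.

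*Fabp3* RNA was lower in every F3-KO heart than in every WT heart, as the labels say, and a remainder was still counted. In WT sham hearts *Fabp3* was measured at 2847, 2430 and 2116 CPM (TMM-normalised here and below), and in F3-KO sham hearts at 1088, 1039 and 1066 CPM. In WT TAC hearts it was 3061, 2885 and 2902 CPM, and in F3-KO TAC hearts 1142, 1002 and 1013 CPM. The F3-KO hearts lay close together whichever surgery they had had, with means of 1064 ± 24.4 CPM after sham and 1052 ± 77.9 CPM after TAC (SD, n = 3). All 6 F3-KO hearts were under all 6 WT hearts, which 0.639% of the 14094 genes tested showed in either direction. The gene was called lower in F3-KO after sham, as 0.071% of genes were, and after TAC, as 0.0497% were. The call after sham was lost without any 1 of the 3 F3-KO sham hearts, at log2 fold changes of -1.23, -1.20 and -1.21 (edgeR adjusted p = 0.066, 0.0927 and 0.0999), and that after TAC in a fit of only the 6 libraries compared (-1.51, adjusted p = 0.151). The 13 cardiomyocyte markers, from the cell type that makes *Fabp3*, summed to 94370 to 121380 CPM by library total in WT sham, 119401 to 128263 CPM in F3-KO sham, 94490 to 135101 CPM in WT TAC and 83393 to 98972 CPM in F3-KO TAC hearts. Between F3-KO and WT their median log2 difference was 0.17 after sham, with 10 of 13 above 0, and -0.37 after TAC, with 1 of 13 above 0 and 3 lower at an unadjusted p under 0.05, as 10% of genes were in either direction. edgeR called 0 of them after TAC and DESeq2 called 1, *Tcap*, lower (0.594% of its genes). The median after TAC was -0.40 without both libraries with liver transcripts, and the part of these markers in the *Fabp3* difference was not tested.

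The remaining *Fabp3* was 43.2% of the WT mean after sham and 35.7% after TAC, or 38.7% in the F3-KO TAC heart without liver transcripts. If every remaining transcript lacked exon 2, the same counts would come from a shorter RNA, and per length the remainder would be 54.7% and 45.2%. The difference between these percentages lay in the WT hearts, where the mean was 2464 ± 367 CPM after sham and 2949 ± 97.3 CPM after TAC (SD, n = 3). The WT groups did not overlap after TMM scaling, which was so for 9.1% of genes, and they did overlap when scaled by library total (2701 to 3141 CPM after TAC, 2048 to 2814 CPM after sham). The difference of *Fabp3* between TAC and sham in WT hearts, 0.26 on the log2 scale (SE 0.15, 95% interval -0.06 to 0.58), was not called by edgeR (adjusted p = 0.802). In F3-KO hearts the same difference was -0.02 (-0.34 to 0.30), and the difference between genotypes, -0.28 (-0.73 to 0.18), was not called either (edgeR adjusted p = 0.954). In these 3 comparisons edgeR called 0.0% of genes, with 885, 2412 and 632 genes at an unadjusted p under 0.05, while DESeq2 called 26, 442 and 6 genes. The spread between hearts thus did not separate a *Fabp3* response to TAC from none in either genotype.

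**Figure D1:**
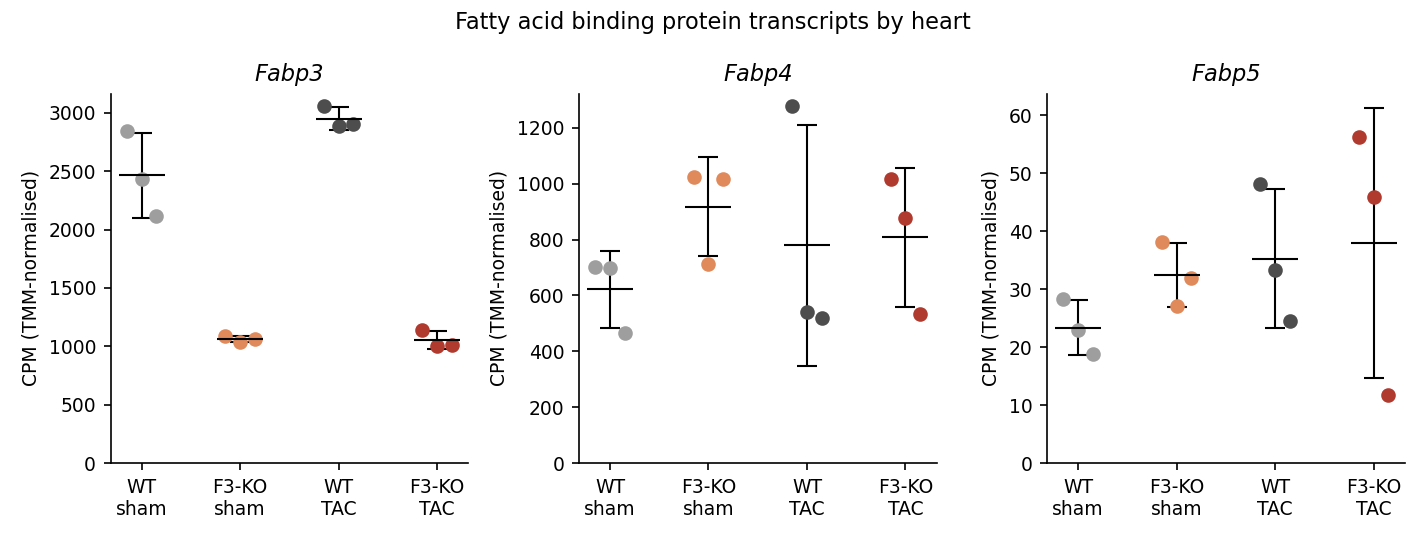
TMM-normalised CPM of *Fabp3*, *Fabp4* and *Fabp5* (vertical axes, each from 0) in the 4 groups, with 1 point per heart and bars for the mean and SD of 3 hearts. *Fabp3* separates the genotypes, with F3-KO hearts at 1002 to 1142 CPM and WT hearts at 2116 to 3061 CPM, while the groups overlap for *Fabp5* and, after TAC, for *Fabp4*.

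*Fabp4* RNA was on average higher in F3-KO than in WT hearts after sham and level with them after TAC, and neither difference was called. In WT sham hearts *Fabp4* was 703, 699 and 464 CPM, and in F3-KO sham hearts 1022, 713 and 1018 CPM. In WT TAC hearts it was 1276, 541 and 520 CPM, and in F3-KO TAC hearts 1015, 876 and 533 CPM. The highest heart of all was WT TAC replicate 1, a heart with unreduced *Fabp3*. In sham hearts the genotypes were parted by a gap between 703 and 713 CPM, as in 13.7% of genes, and they overlapped when scaled by library total (715 to 1006 CPM in F3-KO, 449 to 729 CPM in WT). After TAC, where 11.4% of genes had groups that did not overlap, the *Fabp4* groups overlapped under each of the 3 scalings tried.

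The fitted *Fabp4* difference between F3-KO and WT was 0.56 on the log2 scale after sham (SE 0.35, 95% interval -0.21 to 1.33, edgeR adjusted p = 0.998), or 1.48-fold with an interval of 0.867- to 2.51-fold. After TAC it was 0.05 (-0.71 to 0.82, adjusted p = 0.968), or 1.04-fold with an interval up to 1.76-fold. Over both surgeries it was 0.31 (SE 0.25, -0.23 to 0.85, adjusted p = 0.699), and *Fabp4* was not among the 0.412% of genes called in that comparison. These intervals hold both no change and a rise of the size seen in the sham means. The group means, lowest first, were WT sham (622 ± 137 CPM), WT TAC (779 ± 430 CPM), F3-KO TAC (808 ± 248 CPM) and F3-KO sham (918 ± 178 CPM, all SD, n = 3), and each difference between neighbours in this order was smaller than the larger of their SDs. TAC against sham gave 0.32 in WT and -0.18 in F3-KO hearts, and neither was called (edgeR adjusted p = 0.896 and 0.827). The genotype effect after TAC minus that after sham was -0.51 (-1.59 to 0.57, adjusted p = 0.965).

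*Fabp5* was the scarcest of the 3, and its levels were spread most widely in the F3-KO TAC group. In WT sham hearts it was 28.4, 23.0 and 18.9 CPM, and in F3-KO sham hearts 38.2, 27.2 and 32.0 CPM. In WT TAC hearts it was 48.2, 33.3 and 24.5 CPM, and in F3-KO TAC hearts 56.3, 46.0 and 11.8 CPM. The highest and the lowest of all 12 values both stood in the F3-KO TAC group, a 4.78-fold range, and the genotypes overlapped after sham as after TAC. The lowest, F3-KO TAC replicate 3, is 1 of the libraries with liver transcripts.

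F3-KO against WT gave *Fabp5* log2 fold changes of 0.47 after sham (SE 0.44, 95% interval -0.47 to 1.42) and 0.11 after TAC (SE 0.43, -0.83 to 1.04), with edgeR adjusted p = 0.998 and 0.949. Over both surgeries it was 0.29 (-0.37 to 0.95, adjusted p = 0.774). TAC against sham gave 0.60 in WT hearts (adjusted p = 0.841) and 0.23 in F3-KO hearts (adjusted p = 0.825), and the effect over both genotypes, 0.41 (-0.25 to 1.08), was not called (adjusted p = 0.502), as 0.078% of genes were. The group means, lowest first, were WT sham (23.4 ± 4.79 CPM), F3-KO sham (32.5 ± 5.51 CPM), WT TAC (35.3 ± 12 CPM) and F3-KO TAC (38.0 ± 23.3 CPM, all SD, n = 3). Only the lowest neighbours, WT sham and F3-KO sham, differed by more than the SD of either. Without both libraries with liver transcripts the TAC difference between genotypes became 0.38 for *Fabp4* and 0.67 for *Fabp5*, still not called (edgeR adjusted p = 0.771 and 0.43), and that for *Fabp3* was -1.37 (adjusted p = 0.0872), with 1 F3-KO TAC heart left that is assumed to vary like the other groups.

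**Figure D2:**
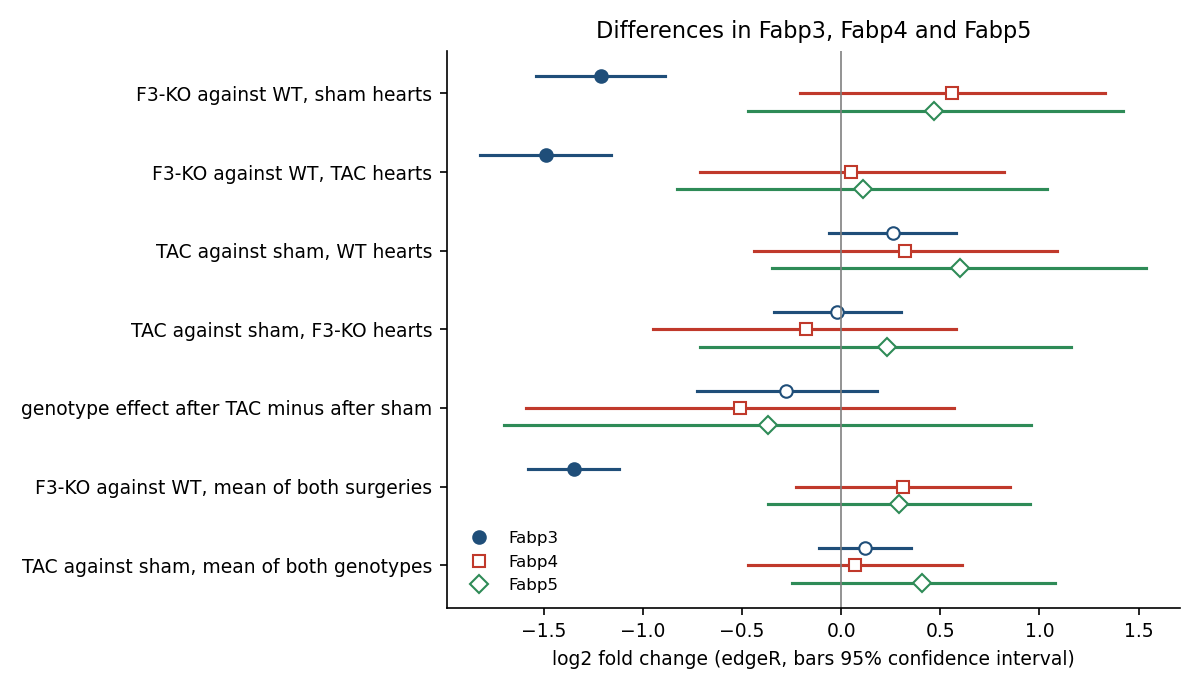
Log2 fold changes from edgeR with 95% confidence intervals (horizontal axis) for the 7 comparisons (rows), with circles for *Fabp3*, squares for *Fabp4* and diamonds for *Fabp5*, filled where the adjusted p was under 0.05. The filled points are *Fabp3* in the 3 comparisons of F3-KO with WT, at -1.21, -1.49 and -1.35, and all intervals of *Fabp4* and *Fabp5* include 0.

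The size of a possible replacement was then set against the size of the loss, both as RNA. The paper reports from western blots that the knockout removed cardiac FABP3 protein fully. The sums and needs below still count the remaining *Fabp3* RNA as kept, so they do not measure the loss of protein. Per length, so that genes can be compared, *Fabp3* stood over *Fabp4* and *Fabp4* over *Fabp5* in 12 of 12 hearts, F3-KO hearts included. The *Fabp3* level was 3.78 to 4.96 times that of *Fabp4* in WT sham hearts and 2.61 to 6.07 times in WT TAC hearts, against 1.14 to 1.59 times in F3-KO sham and 1.23 to 2.07 times in F3-KO TAC hearts. *Fabp4* made up 18.6% of the 3 genes' level per length in WT sham hearts and 43.3% in F3-KO sham hearts, and 18.7% and 40.0% after TAC (43.9% in the F3-KO TAC heart without liver transcripts). A fall of *Fabp3* raises the share of the others by construction. *Fabp5* held 0.637% to 1.65% in the group means.

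After sham, *Fabp3* was lower in F3-KO than in WT hearts by 1400 CPM, while *Fabp4* was higher by 296 CPM and *Fabp5* by 9.06 CPM, which together come to 21.8% of the *Fabp3* difference. After TAC the *Fabp3* difference was 1897 CPM and the gains were 28.6 and 2.71 CPM, together 1.65% of it. This share turned on single hearts. Without WT TAC replicate 1 it was 15.5%, without WT TAC replicate 2 or 3 -4.59% and -5.39%, and without F3-KO TAC replicate 1, 2 or 3 -4.19%, -0.356% and 9.69%, while without both libraries with liver transcripts it was 14.2%. After sham it ranged from 14.2% without WT sham replicate 3 to 29.5% without F3-KO sham replicate 2. To restore the summed level, *Fabp4* plus *Fabp5* would have to stand 3.17-fold over WT after sham and 3.33-fold after TAC, against observed ratios of 1.47 and 1.04. The upper 95% limits of the fitted folds were under both needs, at 2.51 for *Fabp4* and 2.68 for *Fabp5* after sham, and at 1.76 and 2.05 after TAC. Per length and with exon 2 left out of the F3-KO transcript, the needed ratios were 2.89 and 3.17, still over those limits. Without both libraries with liver transcripts the need after TAC was 3.22-fold, the observed ratio 1.32 and the upper limits 2.64 and 2.62. With single hearts left out the *Fabp4* limit stayed under the need in CPM in each of 12 fits. The *Fabp5* limit was the larger number without WT sham replicate 1 (3.38 against 3.01) and without F3-KO sham replicate 2 (3.20 against 3.15). The need is a fold of the sum, in which *Fabp5* is a small part (23.4 of 646 CPM in WT sham hearts). A rise of *Fabp5* alone to those limits would therefore not restore the summed level. These needs take the *Fabp3* difference at its mean, with no error of its own. The need per length with exon 2 left out was not recalculated without single hearts. The *Fabp4* limit after sham was 2.98 without WT sham replicate 1 or without F3-KO sham replicate 2. It was 2.96 without WT sham replicate 2. Those limits are over the 2.89 needed per length with all sham hearts.

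The summed level of *Fabp4* and *Fabp5* was 898 CPM in F3-KO and 730 CPM in WT hearts, a difference of 168 CPM that did not pass an exact two-sided permutation test of genotype within surgery (p = 0.31, 400 arrangements, 6 hearts against 6). This result rested on 1 heart, since without WT TAC replicate 1 the difference was 295 CPM (exact permutation p = 0.04). Without both libraries with liver transcripts it was 281 CPM (exact permutation p = 0.225). Within sham hearts alone the difference was 305 CPM, at the smallest p that 3 hearts against 3 allow (exact permutation p = 0.1), and within TAC hearts 31.4 CPM (exact permutation p = 1.0). The sum of all 3 genes was 1956 CPM in F3-KO and 3437 CPM in WT hearts, a difference of -1481 CPM (F3-KO minus WT), with the smallest p that these permutations can give (exact permutation p = 0.005). In F3-KO hearts that sum was 64.8% of WT after sham and 50.4% after TAC (58.8% without both libraries with liver transcripts).

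**Figure D3:**
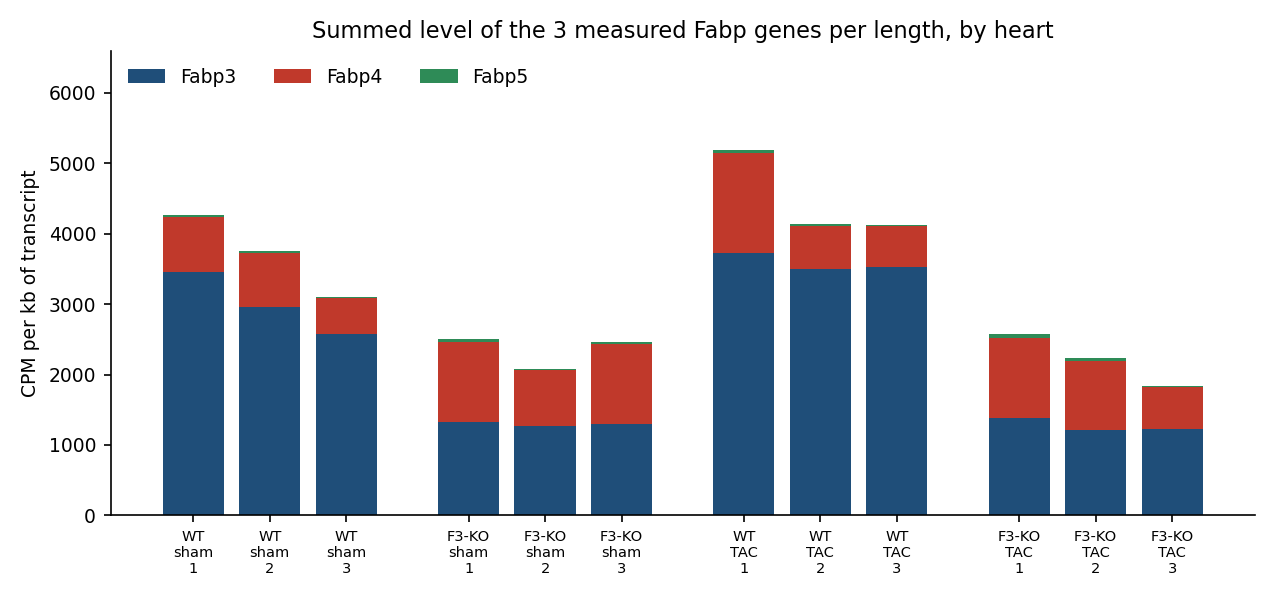
CPM per kb of transcript for each of the 12 hearts (bars), stacked from *Fabp3* at the bottom through *Fabp4* to *Fabp5*, with full-length transcripts assumed in both genotypes. After TAC the *Fabp4* segment averages 870 CPM per kb in WT and 902 CPM per kb in F3-KO hearts, and the whole bar is lower in each F3-KO heart than in each WT heart.

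No other gene of the family came near the level of these 3. *Fabp2*, *Fabp9* and *Fabp12* had at most 3 counts in any library, and *Pmp2*, the FABP of peripheral myelin, at most 4. *Fabp7*, the brain form, ranged from 0 to 8 counts. *Fabp1*, the liver form, had 61 and 88 counts (3.89 and 7.25 CPM) in F3-KO TAC replicates 2 and 3 and at most 1 count in each of the other 10 hearts. Those are the libraries with hepatocyte markers at 85.0 and 132 CPM, among them all 8 markers detected, and their part in the *Fabp1* counts was not tested. *Rbp7*, a related retinol carrier of capillary endothelium, differed by 0.19 on the log2 scale between F3-KO and WT hearts over both surgeries and was not called (edgeR adjusted p = 0.73).

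Genes of the same pathway were examined in 5 lists, fatty acid uptake and lipolysis, acyl-CoA formation and mitochondrial entry, PPAR receptors and partners, PPAR target genes, and endothelial regulators of fatty acid transport. Of the 60 genes 56 were tested, and over both surgeries 0 were called between F3-KO and WT by edgeR, with 4 higher and 4 lower at an unadjusted p under 0.05, as 10.1% of all genes were. DESeq2 called 1 of them, *Slc27a1*, lower in F3-KO (1.40% of its genes), and limma-trend called 0. The list medians of that comparison lay between -0.11 and 0.04 on the log2 scale, and they average the values of both surgeries. After sham 34 of the 56 genes were above 0 (49.2% of all genes), with 6 higher and 0 lower at an unadjusted p under 0.05 (6.02% of all genes), and after TAC 13 of 56 were above 0 (53.1% of all genes), with 1 higher and 5 lower. The median was 0.14 after sham and -0.34 after TAC for acyl-CoA formation and mitochondrial entry, and 0.12 and -0.39 for PPAR target genes, beside 0.00 and 0.02 over all genes tested. Without both libraries with liver transcripts 21 of 56 were above 0 after TAC. The genotype effect after TAC minus that after sham was called for 0 of the 56, with 10 above 0 and 2 lower at an unadjusted p under 0.05. *Slc27a1*, a fatty acid transport protein, differed by -0.71 over both surgeries (SE 0.19, edgeR adjusted p = 0.209). *Ppargc1a*, a coactivator of mitochondrial genes, differed by 0.41 (adjusted p = 0.43) and *Pdk4*, a PPAR target that restrains glucose oxidation, by -1.11 (adjusted p = 0.493).

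Genes tied to lipolysis at the capillary wall and to the control of *Fabp4* varied widely between hearts. *Angptl4*, a PPAR target that inhibits lipoprotein lipase, was 8.15, 4.03 and 4.17 CPM in WT sham and 27.5, 17.3 and 23.9 CPM in F3-KO sham hearts. After TAC it was 43.0, 8.18 and 2 CPM in WT and 50.4, 47.6 and 20.2 CPM in F3-KO hearts. The sham groups did not overlap, as in 13.7% of genes, and the TAC groups did, through the same WT TAC replicate 1 that was highest in *Fabp4*. Over both surgeries the log2 difference was 1.61 (SE 0.54), not called (edgeR adjusted p = 0.313). *Pparg*, a receptor known to drive *Fabp4* in adipocytes and endothelium, was 12.4, 15.5 and 12.2 CPM in WT sham and 23.8, 15.6 and 27.1 CPM in F3-KO sham hearts. After TAC it was 25.9, 15.3 and 14.2 CPM in WT and 25.6, 21.2 and 16.0 CPM in F3-KO hearts. Its genotype difference over both surgeries, 0.45 (SE 0.19), was not called (edgeR adjusted p = 0.454). *Meox2* and *Tcf15*, from the list of endothelial regulators of fatty acid transport, went the other way. They differed by -0.40 and -0.39 over both surgeries and were not called (edgeR adjusted p = 0.541 and 0.566). Of the 10 genes of that list 4 were above 0 in this comparison.

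Across the 12 hearts *Fabp4* and *Fabp5* varied together, and both varied with marker genes of the endothelium and of other cell types. Pearson's r of their log2 CPM with each other was 0.77 (rho 0.79), and 0.79 after each group's mean was subtracted. With the sum of 11 endothelial markers r was 0.74 for *Fabp4* and 0.79 for *Fabp5* (rho 0.73 and 0.78), and -0.10 for *Fabp3*. Within groups it was 0.76 and 0.81 for *Fabp4* and *Fabp5* with the endothelial sum, against 0.73 and 0.78 with fibroblast markers, 0.65 and 0.58 with red blood cell markers and -0.61 and -0.32 with cardiomyocyte markers. All genes of 1 heart share its library depth and cell makeup, which differed between hearts, so the values describe these hearts and no p is given. The 5 genes most like *Fabp4* were *Sparcl1*, *Ndufa4l2*, *Pparg*, *Coro2b* and *Cldn5* (r 0.91 to 0.88 over 12 hearts), and within groups *Prrg3*, *Prrg2*, *Git2*, *Lipa* and *Cldn5* (r 0.95 to 0.92). *Cldn5* encodes a tight junction protein of endothelium. For *Fabp5* they were *Bcl6b*, *Pcdh12*, *Smarcd2*, *Ccdc34* and *Slc44a1* (r 0.95 to 0.92), and within groups *Mest*, *Prcp*, *Bcl6b*, *Fam171a2* and *Ptpn9* (r 0.98 to 0.96). *Bcl6b* and *Pcdh12* are also known from endothelium.

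The endothelial markers summed to 1160 to 1497 CPM by library total in WT sham, 1214 to 1665 CPM in F3-KO sham, 962 to 1621 CPM in WT TAC and 1008 to 1886 CPM in F3-KO TAC hearts, and 0 of the 11 were at 0 in any heart. Their median log2 difference between F3-KO and WT over both surgeries was 0.11, with 0 of 11 called by edgeR, DESeq2 or limma-trend and 0 at an unadjusted p under 0.05. Divided by that sum, a calculation added after the data were seen, *Fabp4* was higher in F3-KO than WT by 0.27 on the log2 scale, against 0.35 undivided, and neither passed (exact permutation p = 0.195 and 0.23). For *Fabp5* the values were 0.10 and 0.18 (exact permutation p = 0.755 and 0.71). By heart, *Fabp4* over that sum was 0.577, 0.487 and 0.387 in WT sham and 0.604, 0.589 and 0.788 in F3-KO sham hearts. After TAC it was 0.807, 0.388 and 0.504 in WT and 0.585, 0.640 and 0.510 in F3-KO hearts. These ratios were not tested within 1 surgery. In bulk RNA, more cells of a type and more RNA per cell cannot be told apart.

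**Figure D4:**
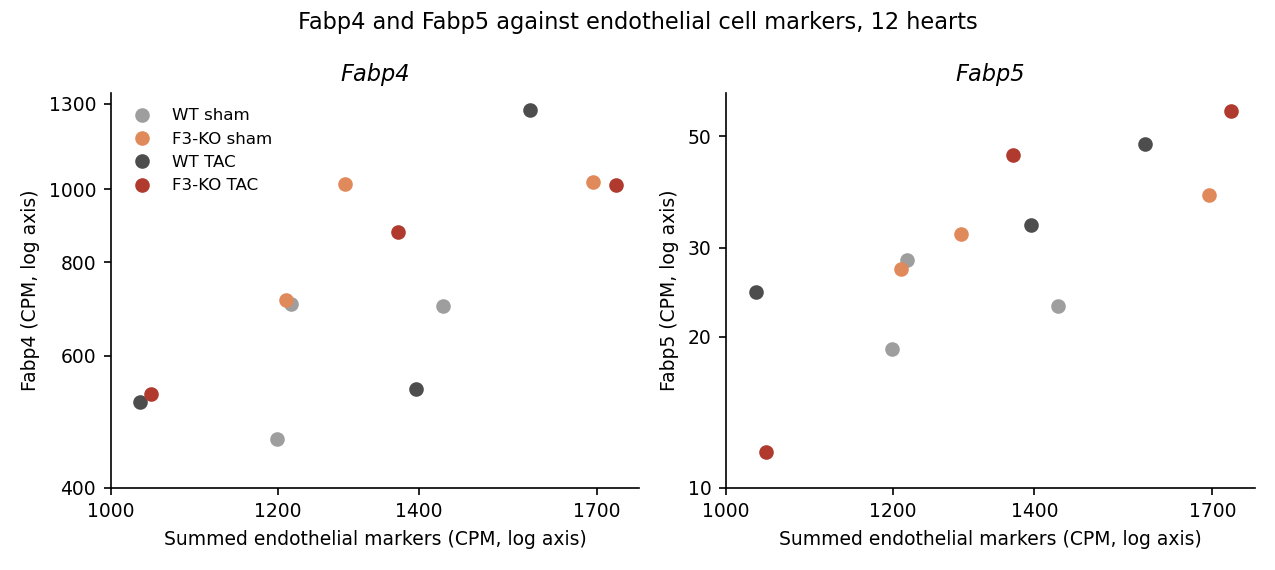
TMM-normalised CPM of *Fabp4* and *Fabp5* (vertical log axes) against the sum of 11 endothelial markers (horizontal log axes), with 1 point per heart coloured by group. Hearts with more endothelial marker RNA tended to have more of both genes (r 0.74 and 0.79), and the groups overlap along the horizontal axis. *Fabp4* over the marker sum was 0.387 to 0.577 in WT sham and 0.589 to 0.788 in F3-KO sham hearts.

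Markers of the other cell types that make these proteins were checked. The 10 adipocyte markers measured summed to 51.8 to 78.0 CPM, mostly from *Thrsp* (19.4 to 40.3 CPM) and *Cidea* (24.8 to 42.2 CPM). *Adipoq*, the hormone that defines fat cells, *Plin1*, the coat of their lipid droplet, and *Retn* were at most at 0.379, 0.303 and 0.1 CPM and at 0 in several hearts. *Car3*, a carbonic anhydrase of adipocytes and slow muscle, was 2.20, 2.36 and 5.69 CPM in F3-KO TAC hearts and 0.392, 0.440 and 0.200 CPM in WT TAC hearts. This log2 difference of 3.25 was not called (edgeR adjusted p = 0.374), and the 2.20 CPM is from the heart without liver transcripts. *Cidea* went the other way, at 24.8, 27.2 and 31.5 CPM in F3-KO TAC against 42.2, 37.8 and 41.9 CPM in WT TAC hearts. DESeq2 called *Cidea* lower (0.594% of its genes), and *Thrsp* differed by 0.02. Of the 3 markers tested after TAC, 1 was higher and 1 lower at an unadjusted p under 0.05, as 10% of genes were in either direction. After sham *Thrsp* differed by 0.62 and *Car3* by -1.14, and neither was called (edgeR adjusted p = 0.578 and 0.998). There 1 of the 3 was above 0, and 1 passed an unadjusted p under 0.05, as 6.02% of genes did. The sums after sham were 67.9 to 70.3 CPM in F3-KO and 51.8 to 70.3 CPM in WT hearts. The part of adipocyte markers in the *Fabp4* level was not tested. The 13 macrophage markers summed to 239 to 501 CPM in WT sham and 348 to 427 CPM in F3-KO sham hearts, and to 429 to 726 CPM in WT TAC and 587 to 904 CPM in F3-KO TAC hearts. Of these markers 11 passed an unadjusted p under 0.05 with TAC over both genotypes, all higher, where 17.8% of all genes did in either direction. edgeR and limma-trend called 0 and DESeq2 called 10 of them, as it called 4.06% of its genes. Their r with *Fabp4* was 0.34 and with *Fabp5* 0.38, and their part in either gene was not tested. Fibroblast markers (737 to 7805 CPM, the highest sum in F3-KO TAC replicate 2) had r of 0.50 and 0.61 over the 12 hearts, and red blood cell markers (299 to 4493 CPM) 0.58 and 0.48. Between F3-KO and WT over both surgeries the fibroblast median was 0.89 on the log2 scale, with 8 of 8 above 0. The red blood cell median was 1.29 after sham, with 5 of 5 above 0, and -1.66 after TAC, with 0 of 5 above 0. edgeR called 0 of either list in these comparisons, and the part of both lists in *Fabp4* and *Fabp5* was not tested.

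The genes whose pattern was most like that of *Fabp3* followed its split by genotype. They were *Ttc41*, *Wdfy1*, *Rab4a*, *Tmem181b-ps* and *Dynlt1b* (r 0.98 to 0.93 over 12 hearts). Since *Fabp3* parts the genotypes, genes chosen for likeness to it are lower in F3-KO by the choice, here with log2 differences of -1.98, -1.14, -2.42, -1.32 and -1.60. In this order their edgeR adjusted p were 7.42e-05, 0.000174, 1.73e-05, 7.42e-05 and 0.00226, against 9.05e-05 for *Fabp3* (-1.35). Each was called, as 0.412% of genes were. The choice sets the direction and favours a small p, but it does not set the size. *Rab4a* is a small GTPase of recycling endosomes and *Dynlt1b* a dynein light chain. Within groups, where the genotype is taken out, the 5 were *Nek1*, *Rapgef6*, *Wdr3*, *Mindy3* and *Dbi* (r 0.90 to 0.84), with no gene shared between both sets. *Dbi* encodes the acyl-CoA binding protein, the carrier of the activated form of the fatty acids that FABPs hold. Of the neighbours on the chromosome that could be tested, edgeR called none between F3-KO and WT over both surgeries. Beside *Fabp3*, *Tinagl1*, *Serinc2*, *Zcchc17*, *Snrnp40* and *Nkain1* differed by 0.05, 1.02, 0.01, -0.07 and 0.63 on the log2 scale (adjusted p 0.213 to 0.994). Beside *Fabp5* and *Fabp4*, *Zbtb10*, *Zfp704*, *Pag1* and *Impa1* differed by 0.05, 0.33, 0.26 and 0.15 (adjusted p 0.357 to 0.904). The interval between *Fabp5* and *Fabp4* on chromosome 3 held *Gm9833*, *Pmp2* and *Fabp9*, all under 0.1 CPM on average.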

How the data were processed

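RNA of 12 mouse hearts was sequenced (4 groups, 3 replicates each, assigned from the sample titles). The authors deposited estimated counts per gene, not normalised, after filtering reads with SOAPnuke and mapping with HISAT2 2.0.4 and STAR 2.3.0, and they tested with DESeq2. The counting tool is not given in the sources used here, and the genome builds mm8 and mm9 are named without a role, so positions and transcript lengths come from GENCODE M21 (GRCm38). Of the deposited values 40.6% were not whole, and all were rounded. The tests had been planned for whole counts. Libraries held 10424334 to 14372011 counts. Floors of 3 counts cover counting error only.

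Genes were filtered with filterByExpr (minimum count 10, 14094 genes left), scaled by TMM and fitted with edgeR 4.0.16 (quasi-likelihood, R 4.3.3, 8 residual degrees of freedom before moderation), with calls at a Benjamini-Hochberg adjusted p under 0.05 over all genes tested. Marker sums are CPM by library total, except in the ratios, correlations and plot, which use TMM-normalised CPM. Sums of genes were compared with exact two-sided permutation tests within surgery. On simulated counts for F3-KO against WT over both surgeries (13973 genes), the edgeR test recovered 39 of 50 genes lowered and 48 of 50 raised by 1 on the log2 scale, and called 7 of 13773 unchanged genes. Alternatives were DESeq2 1.42.0, limma-trend (limma 3.58.1), other scalings and filters, the replicate number as a block, only the groups compared, and leaving out each heart.

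Named genes were the members, the other family rows, from each list those called and the 2 with the largest mean genotype difference, the 5 most like each member (Pearson's r of log2 CPM, prior count 2, genes of at least 5 CPM on average) and the 3 nearest measured genes on each side. Other genes named were chosen after their values were seen, and 1 gene is not reported here. The members and lists were chosen with earlier results of these data known. Deviations of same-numbered replicates had r from -0.14 to 0.36, over 0.1 in 4 of 18 pairs, so the numbers were not treated as pairs. The highest r was among the pairs of WT TAC with F3-KO TAC (0.17, 0.06 and 0.36). The separate table of WT sham replicate 2 breaks off and was not used, and in 11 of 11 other hearts the separate table matched the joint one.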

Additional observations from a re-analysis of the deposited data

How the results depend on the processing

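Of the member differences and sums, the direction and side of the threshold held in 415 of 445 recalculations, and *Fabp4* and *Fabp5* were called in none of the 7 comparisons under any of them. For *Fabp3* after TAC, a fit of the 6 libraries compared lost the call (-1.51, edgeR adjusted p = 0.151), and so did leaving out both libraries with liver transcripts (-1.37, adjusted p = 0.0872), an alternative chosen after seeing the data, as fewer samples remained. The share of the *Fabp3* difference met by the others and the counts of list genes were recalculated without hearts after seeing the data too. Without single hearts, *Fabp3* after sham ranged from -1.31 to -1.09 and lost its call without F3-KO sham replicate 1, 2 or 3 (adjusted p 0.066, 0.0927 and 0.0999), and the *Fabp4* plus *Fabp5* difference ranged from 101 to 295 CPM, passing without WT TAC replicate 1. Uncalled differences that changed sign without single hearts were, for *Fabp4*, F3-KO against WT after TAC (-0.17 to 0.60), TAC against sham in WT (-0.23 to 0.55), in F3-KO (-0.39 to 0.04) and over both (-0.21 to 0.18), and the genotype effect after TAC minus after sham (-0.73 to 0.04). For *Fabp5* these were F3-KO against WT after TAC (-0.29 to 0.53), TAC against sham in F3-KO (-0.17 to 0.65) and the difference of genotype effects (-0.76 to 0.06), and for *Fabp3* TAC against sham in F3-KO (-0.09 to 0.01). limma-trend turned *Fabp5* to -0.12 (F3-KO against WT after TAC) and -0.04 (TAC against sham, F3-KO). Without both liver libraries TAC against sham in F3-KO became 0.10 for *Fabp3* and 0.14 for *Fabp4*, and the *Fabp5* difference of genotype effects 0.19. The cause of these changes of sign was not tested.

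With the replicate block, a pairing that r of -0.14 to 0.36 bears out weakly at most, *Fabp4* in TAC against sham over both genotypes was 0.00. *Fabp3* in F3-KO against WT over both surgeries was -1.35 (edgeR adjusted p = 0.000346), no other direction or call of the members changed, and calls after sham went from 15 to 8 genes. Counts of genes called by edgeR and by DESeq2 were 15 and 102 after sham, 11 and 94 after TAC, 58 and 217 over both surgeries (F3-KO against WT), 0 and 26 in WT, 0 and 442 in F3-KO, 11 and 613 over both genotypes (TAC against sham), and 0 and 6 for the difference of effects. At an unadjusted p under 0.05 edgeR gave 885, 2412 and 632 genes where it called 0. Of the 5 genes most like each member, 2, 3 and 2 recurred with Spearman's rho for *Fabp3*, *Fabp4* and *Fabp5*, and 5 for each with a prior count of 0.5. Depth limits *Fabp1*, *Fabp2*, *Fabp7*, *Fabp9*, *Fabp12* and *Pmp2*, not the 3 members.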
